A study of Homo sapiens with 14 samples.

Results

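The Polycomb repressive complexes were followed through 9 of their genes, in a series whose tables hold 54628 gene symbols (WT and HMGB2 KD), 57792 (old and young) and 38716 (ICM). The members were taken from a named list: EZH1, EZH2, EED and SUZ12 of Polycomb repressive complex 2 (PRC2), and CBX2, CBX7, CBX8, BMI1 and RING1 of Polycomb repressive complex 1 (PRC1). All 9 were listed in every kind of table. Poly(A) RNA was sequenced from IMR90, primary human fetal lung fibroblasts, in 7 groups. The IMR90 isolates I79 and I10 were both sampled young (proliferating) and old (passaged into replicative senescence). Further I79 cells had been treated with inflachromene (ICM), a compound known to bind HMGB1 and HMGB2, which are proteins of chromatin. The remaining groups were WT (wild type) and HMGB2 KD, in which HMGB2 was knocked down with siRNA. Neither the isolate behind WT and HMGB2 KD is stated in the labels, nor whether WT received a control siRNA. The labels name 2 replicates for each group, but each of the 4 old and young groups came as 1 column, so that 10 columns were available.

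Polycomb complexes keep developmental genes silent. PRC2 places methyl groups on lysine 27 of histone H3 (H3K27me3) through its catalytic subunit EZH1 or EZH2, which needs EED and SUZ12 for activity. The canonical form of PRC1 binds this mark through a CBX subunit, and its RING1 or RNF2 subunit, paired with a PCGF subunit such as BMI1, ubiquitinates histone H2A. In fibroblasts the INK4 locus (CDKN2A and CDKN2B), which encodes inhibitors of the cell cycle, is a known Polycomb target, and EZH2 is known to be expressed with the cell cycle under E2F factors.

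Promoter sequences are shown for EZH2, EZH1 and CBX7, the members called in old cells for which RefSeq windows were matched, and for SUZ12, a partner of EZH2 whose level was not called. They were taken from RefSeq on GRCh38.p14 as 250 bases before and 50 bases after the gene's start, and capitals mark the motif letters found. The motifs searched, on both strands, were an E2F core in 4 forms and the cell cycle homology region, CHR, written TTTGAA. The E2F forms were TTCCCGC, then the form TTCGCGC, then the form TTGCCGC and as the last form TTGGCGC. No matches in these windows overlapped. The upstream one of 2 EZH2 windows lies on chromosome 7 from 148884242 to 148884541, that of EZH1 on chromosome 17 from 42744991 to 42745290, that of CBX7 on chromosome 22 from 39152631 to 39152930, all on the minus strand. The window of SUZ12 lies on chromosome 17 from 31936757 to 31937056 on the plus strand.
EZH2: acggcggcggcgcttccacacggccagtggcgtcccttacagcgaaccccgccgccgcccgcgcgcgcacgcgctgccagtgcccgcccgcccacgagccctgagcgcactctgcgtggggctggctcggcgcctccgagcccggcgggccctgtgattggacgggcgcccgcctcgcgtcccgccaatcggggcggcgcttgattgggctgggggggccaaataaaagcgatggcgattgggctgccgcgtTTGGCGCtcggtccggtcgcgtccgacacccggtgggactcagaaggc
EZH1: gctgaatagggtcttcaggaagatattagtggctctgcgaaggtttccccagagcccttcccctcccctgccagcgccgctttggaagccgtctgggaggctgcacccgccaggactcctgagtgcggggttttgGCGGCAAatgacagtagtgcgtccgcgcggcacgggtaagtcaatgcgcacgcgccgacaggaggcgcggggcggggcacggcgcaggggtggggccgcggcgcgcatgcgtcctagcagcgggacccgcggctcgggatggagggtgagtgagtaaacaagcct
CBX7: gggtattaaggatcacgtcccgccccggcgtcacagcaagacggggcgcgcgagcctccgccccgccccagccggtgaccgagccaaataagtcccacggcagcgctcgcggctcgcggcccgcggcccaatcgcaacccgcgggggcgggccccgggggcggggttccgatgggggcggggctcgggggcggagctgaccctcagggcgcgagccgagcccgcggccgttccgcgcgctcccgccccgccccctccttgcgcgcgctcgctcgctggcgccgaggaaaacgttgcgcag
SUZ12: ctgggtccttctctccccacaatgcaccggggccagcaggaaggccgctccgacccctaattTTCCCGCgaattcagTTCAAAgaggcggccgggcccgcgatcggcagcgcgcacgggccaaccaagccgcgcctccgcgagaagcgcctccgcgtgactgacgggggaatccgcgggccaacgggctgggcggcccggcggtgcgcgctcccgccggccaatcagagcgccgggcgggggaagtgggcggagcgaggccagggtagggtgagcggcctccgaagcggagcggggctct
EZH2 held 1 E2F match, TTGGCGC, which began at base 3 of the transcribed part of this window. The other EZH2 window, on chromosome 7 from 148883436 to 148883735, held no match. EZH1 held TTGCCGC on the opposite strand, with its leftmost letter 115 bases before the start. SUZ12 held TTCCCGC and, 15 bases further on, the CHR letters on the opposite strand. No letters of either motif were found in the windows of CBX7, EED, BMI1 or RING1. Of all 35116 promoter windows of this length, 13.0% held the E2F core and 15.2% the CHR. RefSeq windows were matched for 7 of the 9 members. CBX2 and CBX8 were not matched.

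Libraries held between 10971132 and 41168932 counts. The targeted gene HMGB2 stood at 27.1 and 27.3 normalized CPM (library-scaled counts, by TMM) in WT and at 3.22 and 3.64 in HMGB2 KD. It was also lower in old cells, at 38.2 and 46.3 CPM against 122 and 141 in young ones. Fibroblast identity was checked with 8 markers, none of which was at 0 in any column, and their summed level lay between 10854 CPM (ICM) and 32276 CPM (HMGB2 KD). Of 5 epithelial markers, between 2 and 4 were at 0 in each column, and their summed level stayed at or below 0.73 CPM. The summed endothelial level was 0.39 to 0.67 CPM in young and 2.44 to 7.05 in old columns. The summed immune level was 23.1 to 25.3 CPM in young and 76.6 to 151 in old columns, mostly from CD68, a lysosomal gene that fibroblasts also express. In ICM the endothelial sum was 3.65 to 3.74 CPM and the immune sum 58.9 to 65.8, and in WT they were 7.82 to 7.87 and 40.0 to 40.6. The part of these markers in the results on old cells and on ICM was not tested.

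The old against young comparison asks which transcripts differ between old and young IMR90. Proliferation markers, given further on, were lower but still detected in old columns, at 276 (I79) and 374 CPM (I10) summed. The labels do not state that all old cells had stopped dividing. In both isolates the PRC2 methyltransferase EZH2 was lower and its paralog EZH1 higher in old cells, by 4.85-fold and 1.90-fold on mean normalized CPM. Among the CBX readers of PRC1, CBX2 was 8.17-fold lower and CBX7 5.77-fold higher. The core subunits EED, SUZ12, BMI1 and RING1 and the reader CBX8 were not called. Calls required an adjusted p below 0.01 in the quasi-likelihood test of edgeR together with a log2 fold change beyond 0.6 in size. Isolate was a covariate, so that the 2 isolates are the replicates. Of the 9 members 4 were called, against 9.57% of the 15115 genes tested. The 2 higher members stand against 5.75% of genes called higher, and the 2 lower ones against 3.82% called lower. These values concern RNA in a whole culture, in which fewer cells with a transcript and less RNA per cell cannot be told apart.

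EZH2 (GRCh37 chromosome 7, 148504349 to 148581413, minus strand), the methyltransferase of dividing cells, stood at 32.4 CPM in I79 young and 31.97 in I10 young (506 and 613 estimated counts). It stood at 5.59 CPM in I79 old and 7.68 in I10 old (103 and 139 estimated counts). The young columns were nearly equal and both lay far above the old ones. The means were 32.2 ± 0.29 CPM in young and 6.64 ± 1.48 in old cells (SD, n = 2 isolates). The log2 fold change was -2.29 (with an SE of 0.18, edgeR adjusted p = 0.004258), and EZH2 was lower in 2 of 2 isolates.

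EZH1 (GRCh37 chromosome 17, 40852293 to 40897067, minus strand), the paralog that is also expressed in resting cells, stood at 22.5 CPM in I79 young and 22.3 in I10 young. It rose to 43.2 CPM in I79 old and 41.9 in I10 old. The isolates differed by far less than the ages did. The means were 22.4 ± 0.18 and 42.6 ± 0.87 CPM (SD, n = 2 isolates), which gives a log2 fold change of 0.93 (with an SE of 0.12, edgeR adjusted p = 0.008063).

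Per transcript length, in the deposited TPM (length-scaled transcript levels), EZH2 was the more abundant of the pair in young cells and the less abundant in old ones. EZH2 stood at 22.3 TPM in I79 young and 22.4 in I10 young, where EZH1 stood at 12.2 and 13.1 TPM. In the old columns EZH2 stood at 3.33 TPM (I79) and 4.24 TPM (I10), and EZH1 at 22.5 and 20.6 TPM. EZH2 thus made up 64.7% and 63.1% of the summed EZH1 and EZH2 TPM in young cells and 12.9% and 17.1% in old cells. The sum itself was 34.5 and 35.5 TPM in young and 25.8 and 24.9 TPM in old columns. The gain of EZH1 was therefore smaller, in TPM, than the loss of EZH2.

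The transcripts assigned to EZH2 also differed in kind. Transcripts annotated as protein coding took 83.4% of the EZH2 reads in I79 young and 82.5% in I10 young, against 63.7% in I79 old and 63.5% in I10 old. Transcripts annotated as targets of nonsense-mediated decay took 16.2% and 17.3% in young columns and 36.3% and 33.0% in old ones. These shares rest on 103 and 139 estimated reads in the old columns, and reads were divided between transcripts by the authors' estimate. For EZH1 the protein-coding share was 88.5% and 86.8% in young columns and 81.7% and 86.4% in old ones. No test was run on these shares.

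**Figure D1:**
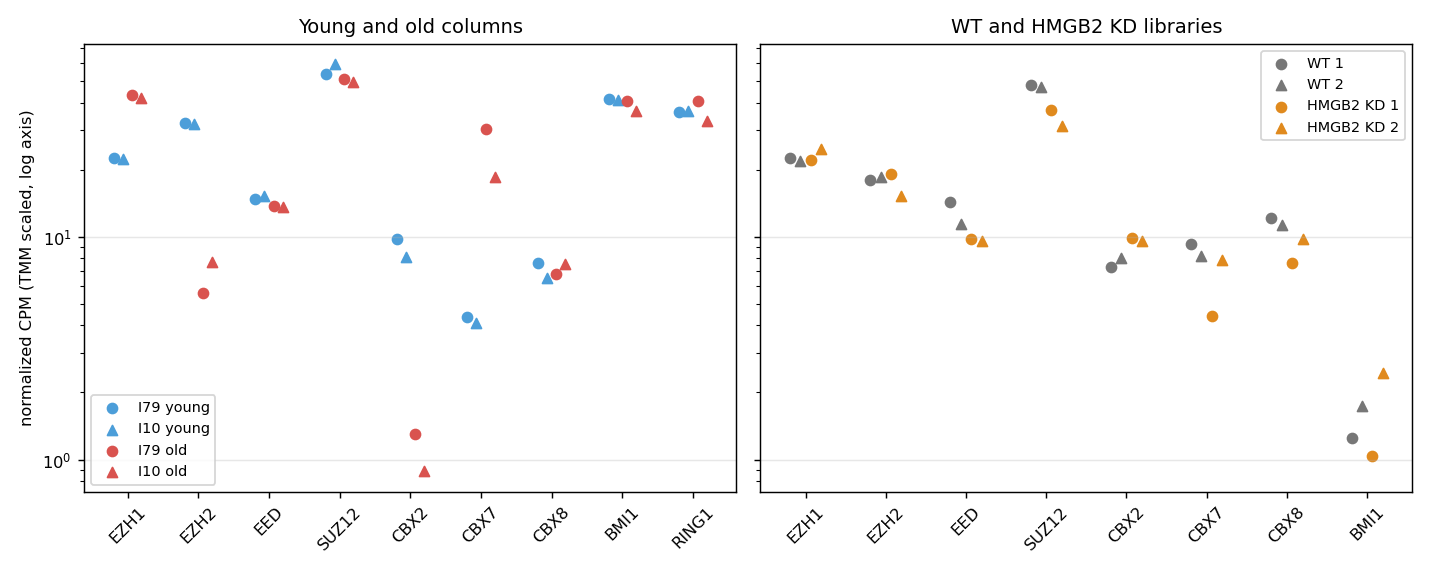
Normalized CPM of each Polycomb member on a log axis, with 1 point per column, for young and old (left) and for WT and HMGB2 KD (right; RING1 is absent because it did not pass the filter on low counts). In the left panel EZH2 and CBX2 lie lower and EZH1 and CBX7 higher in both old columns, while on the right the 2 groups lie close together.

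The structural PRC2 subunits were not called. EED, which binds H3K27me3 and stimulates the enzyme, stood at 14.7 and 15.2 CPM in young columns and at 13.7 and 13.7 CPM in old ones. Its log2 fold change was -0.13 (SE of 0.15, edgeR adjusted p = 0.5285). SUZ12, the scaffold of the complex, stood at 53.6 (I79) and 59.4 CPM (I10) in young columns and at 51.3 and 49.4 CPM in old ones. Its log2 fold change was -0.17 (SE of 0.11, edgeR adjusted p = 0.3). For both genes the old and young columns did not overlap, in either direction the case for 74.0% of all genes tested.

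Among the CBX subunits, which read H3K27me3, CBX2 stood at 9.73 CPM in I79 young and 8.14 in I10 young. It stood at 1.30 CPM in I79 old and 0.88 in I10 old, from 24 and 16 estimated counts. The means were 8.93 ± 1.13 and 1.09 ± 0.30 CPM (SD, n = 2 isolates), which gives a log2 fold change of -3.03 (SE of 0.26, edgeR adjusted p = 0.004719), the largest among the members.

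CBX7 (GRCh37 chromosome 22, 39516172 to 39548685, minus strand) moved the opposite way. It stood at 4.35 CPM in I79 young and 4.12 in I10 young, and at 30.4 CPM in I79 old and 18.5 in I10 old. Both old columns lay above both young ones, and the old isolates were further apart than the young. The means were 4.24 ± 0.16 and 24.4 ± 8.39 CPM (SD, n = 2 isolates), which gives a log2 fold change of 2.48 (SE of 0.22, edgeR adjusted p = 0.004772). CBX7 shares 17.9% of its exonic bases with a non-coding gene on the opposite strand, and reads of the 2 could not be told apart if strand was not used.

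CBX8 and CBX2 are neighbours on chromosome 17 of GRCh37, CBX2 at 77751947 to 77761782 on the plus strand and CBX8 at 77765931 to 77775482 on the minus strand. CBX8 stood at 7.62 and 6.52 CPM in young columns and at 6.84 and 7.57 in old ones, so the ages overlapped, with a log2 fold change of 0.03 (SE of 0.21, edgeR adjusted p = 0.9216). With CBX6 added from the wider list, the summed level of CBX2, CBX6, CBX7 and CBX8 was 36.4 and 36.5 TPM in young columns and 46.97 and 35.8 TPM in old ones. CBX7 took 6.35% and 7.73% of that sum in young columns, and 33.4% (I79) and 21.3% (I10) in old ones. CBX2 took 12.3% and 9.40% in young columns and 1.48% and 0.98% in old ones. CBX6 held the highest share of the 4 in every column, between 52.3% and 66.8%.

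**Figure D2:**
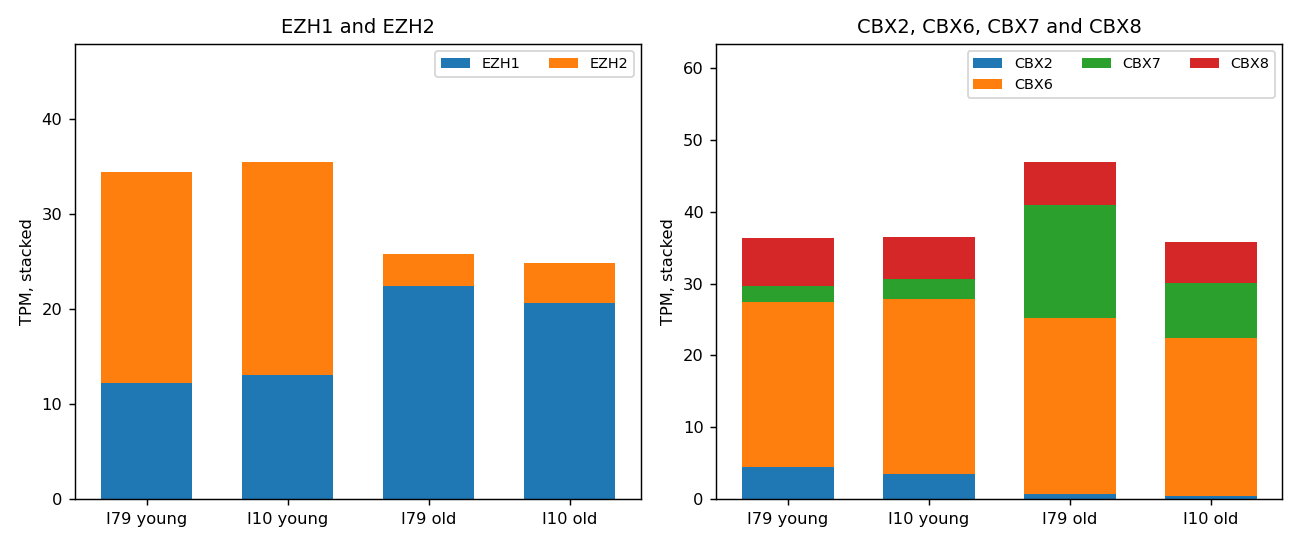
Stacked TPM of the methyltransferases EZH1 and EZH2 (left) and of CBX2, CBX6, CBX7 and CBX8 (right) in each young and old column, with 1 bar per column and no error because each column is 1 value. EZH2 fills most of the left bars in young cells and EZH1 most of them in old cells, while CBX7 widens and CBX2 thins in the old columns on the right.

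The catalytic core of PRC1 was not called. BMI1, the PCGF subunit known for repressing the INK4 locus, stood at 41.4 (I79) and 41.0 CPM (I10) in young columns and at 40.7 and 36.5 in old ones. Its log2 fold change was -0.10 (SE of 0.11, edgeR adjusted p = 0.5403). BMI1 shares 22.8% of its exonic bases with the read-through transcript COMMD3-BMI1 on the same strand, so its own share of the reads is uncertain. RING1, the ubiquitin ligase, stood at 36.2 and 36.8 CPM in young columns and at 40.8 (I79) and 33.0 (I10) in old ones. Its log2 fold change was 0.01 (SE of 0.13, edgeR adjusted p = 0.9607). RING1 took between 63.2% and 65.6% of the summed RING1 and RNF2 TPM in all 4 columns, and BMI1 between 22.2% and 24.0% of the summed PCGF TPM.

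Each isolate was also read alone, with no test because each age had 1 column. Past 0.6 on the log2 scale in the same direction in both isolates were EZH1, EZH2, CBX2 and CBX7, 4 of 9 members, against 27.2% of all genes tested. EZH2 changed by -2.51 in I79 (95% counting interval -2.86 to -2.23) and by -2.04 in I10 (-2.33 to -1.79). CBX7 changed by 2.77 in I79 (2.44 to 3.19) and by 2.14 in I10 (1.81 to 2.54). CBX2 changed by -2.79 (-3.59 to -2.27) and -3.06 (-4.04 to -2.46). EZH1 changed by 0.94 (0.76 to 1.12) and 0.91 (0.74 to 1.09). The counting intervals of the isolates overlapped for each of these genes. They cover counting error only.

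The wider Polycomb list held 39 further genes, of which 38 were tested. In old cells 2 of these passed as higher and 2 as lower, a share near the 9.57% called among all genes. Their median log2 fold change was 0.01, that of the 9 members was -0.10 and that of all genes tested -0.01. PHF1, a PRC2 accessory subunit that binds methylated histone H3, rose from 33.0 and 32.2 CPM to 102 and 96.1 CPM. Its log2 fold change of 1.61 (SE of 0.10, edgeR adjusted p = 0.003571) was the largest rise in this list. PCGF5, a relative of BMI1 in a variant PRC1, rose from 34.5 and 35.6 to 87.4 and 70.6 CPM, with a log2 fold change of 1.16. AUTS2, a partner of variant PRC1, fell from 12.1 and 12.5 to 2.28 and 3.48 CPM, with a log2 fold change of -2.11. L3MBTL2, another variant PRC1 subunit, fell from 27.3 and 26.97 to 11.3 and 10.9 CPM, with a log2 fold change of -1.29. The histone chaperones RBBP4 and RBBP7, which PRC2 shares with other complexes, had log2 fold changes of -0.79 (adjusted p 0.0175) and -0.50 (adjusted p 0.0267 by edgeR) and were not called. None of 8 subunits of the PR-DUB deubiquitinase and neither of the H3K27 demethylases KDM6A and KDM6B was called.

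**Figure D3:**
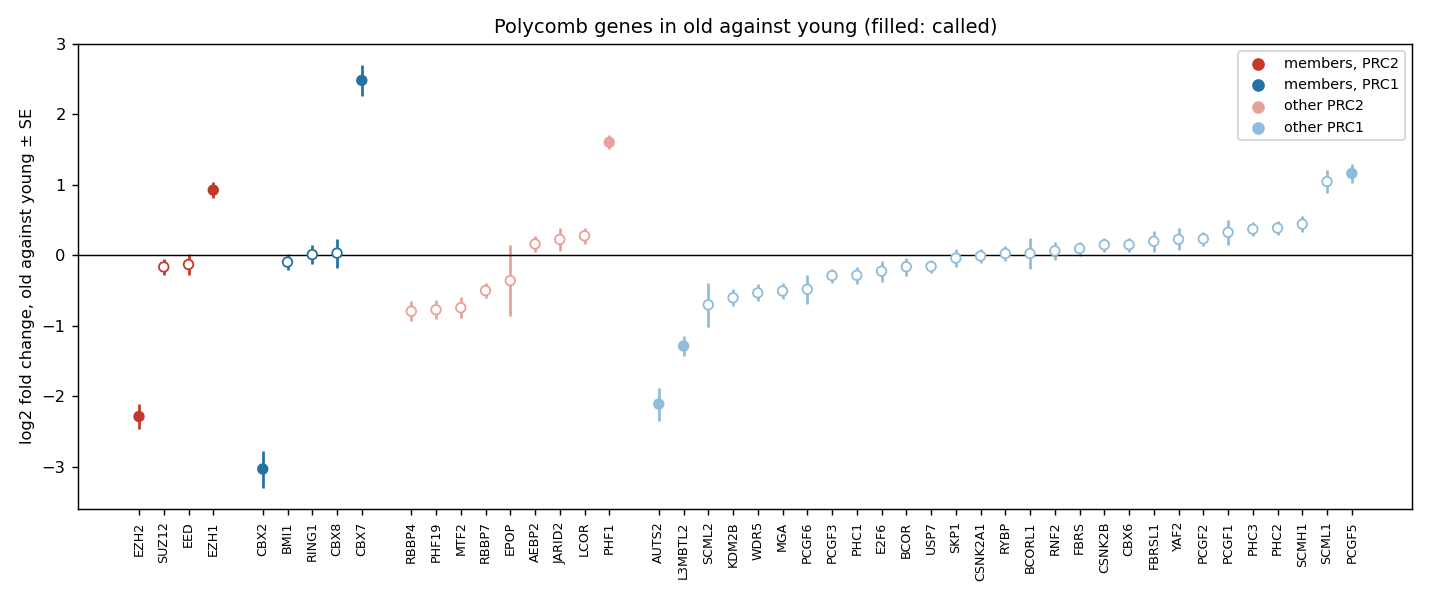
Log2 fold change, old against young, with its SE, of each tested Polycomb gene, sorted within the members of PRC2 and PRC1 and the other genes of each complex. Filled points were called: among members CBX2 at -3.03 and EZH2 at -2.29 lie lowest and CBX7 at 2.48 highest.

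Known Polycomb targets were listed for the same comparison. CDKN2A had a log2 fold change of 0.44 (adjusted p 0.3064) and CDKN2B one of 0.11 (adjusted p 0.755 by edgeR). CDKN2A stood at 9.35 and 9.65 CPM in young columns and at 8.57 (I79) and 18.8 (I10) in old ones, so the ages overlapped. Of 39 HOX genes 17 were tested, and 2 were called, both lower. HOXA5 fell from 51.0 and 55.5 to 18.8 and 13.9 CPM and HOXA3 from 22.9 and 24.7 to 8.73 and 6.58 CPM. The median of the tested HOX genes was -0.67, against -0.01 for all genes.

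Proliferation markers were also lower in old cells. Of 14 proliferation markers, 13 were tested and 11 were called lower in old cells, with a median log2 fold change of -2.03, and their summed level was 1317 to 1468 CPM in young and 276 to 374 CPM in old columns. CCNA2 was listed at 0 in both young columns and was not tested. MKI67 had a log2 fold change of -2.60, TOP2A one of -2.20 and MCM2 one of -2.07. Of the 8 E2F factors, E2F1 (log2 fold change -1.32) and E2F8 (-3.04) were called lower. The part of the cell cycle genes in the EZH2 result was not tested. The 5 genes nearest to EZH2, by Euclidean distance on centred log2 CPM over the 8 columns of the tested tables among 12775 genes, were ZNF334, CENPW, AUTS2, CRISPLD1 and KIF22, at distances of 0.27 to 0.37, where the median gene lay at 2.29. Their log2 fold changes in old cells, from -2.90 to -2.03, were part of what chose them. Of these 5, CENPW encodes a kinetochore protein, KIF22 a mitotic kinesin and AUTS2 a partner of variant PRC1. No function is given here for ZNF334, the nearest, or for CRISPLD1.

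The HMGB2 KD against WT comparison asks which transcripts differ between cells given HMGB2 siRNA and WT. Because a control siRNA in WT is not stated, loss of HMGB2 and siRNA treatment itself cannot be told apart. No member was called after the knockdown, among the 8 that passed the filter on low counts, against 5.2% of the 15338 genes tested by edgeR's quasi-likelihood test. At an unadjusted p under 0.05 there were 3 such members (EED, SUZ12 and CBX8), against 23.9% of all genes, and DESeq2 also called 0. With 1 RUVs factor added to the edgeR fit, CBX7 was called (log2 fold change -0.68, edgeR adjusted p = 0.005088). The study's methods name RUVs followed by DESeq2, a combination that was not run here. The median log2 fold change of the 8 members was -0.25, against 0.00 for all genes tested. EZH1, EZH2, CBX2 and CBX7, the members called in old cells, had log2 fold changes from -0.50 to 0.34 here.

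EZH2 measured 18.1 and 18.6 CPM in the WT libraries against 19.1 and 15.2 CPM after knockdown. The KD libraries lay on both sides of WT. The means were 18.3 ± 0.36 and 17.2 ± 2.70 CPM (SD, n = 2), which gives a log2 fold change of -0.09 (SE of 0.15, edgeR adjusted p = 0.7795). EZH1 measured 22.5 and 21.9 CPM in the WT libraries against 22.1 and 24.7 CPM after knockdown, with a log2 fold change of 0.07 (SE of 0.14, edgeR adjusted p = 0.8105).

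The lowest adjusted p among the members was that of SUZ12. It measured 48.0 and 46.9 CPM in the WT libraries against 37.1 and 31.3 CPM after knockdown, a 1.39-fold lower mean. Its log2 fold change of -0.47 (SE of 0.14, edgeR adjusted p = 0.03841) missed both thresholds. EED measured 14.3 and 11.4 CPM in the WT libraries against 9.75 and 9.61 CPM after knockdown, with a log2 fold change of -0.40 (SE of 0.17, edgeR adjusted p = 0.1647).

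CBX2 measured 7.30 and 8.04 CPM in the WT libraries against 9.86 and 9.56 CPM after knockdown, with a log2 fold change of 0.34 (SE of 0.18, edgeR adjusted p = 0.2737). CBX7 measured 9.23 and 8.20 CPM in the WT libraries against 4.43 and 7.90 CPM after knockdown, with a log2 fold change of -0.50 (SE of 0.25, edgeR adjusted p = 0.2445). The 2 KD libraries of CBX7 were further apart than the group means, and its log2 fold change was -0.15 with HMGB2 KD replicate 1 left out and -0.97 with replicate 2 of that group left out. CBX8 measured 12.2 and 11.3 CPM in the WT libraries against 7.65 and 9.73 CPM after knockdown, with a log2 fold change of -0.43 (SE of 0.18, edgeR adjusted p = 0.1591). The groups did not overlap for 5 of the 8 members, against 53.8% of all genes tested.

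Not every member was measured equally well in these tables. BMI1 had 43 and 65 counts in WT and 38 and 98 in HMGB2 KD, with a log2 fold change of 0.22 (SE of 0.44, edgeR adjusted p = 0.8224), while COMMD3-BMI1 had 0 in all 4 libraries. RING1 had 1 and 3 counts in WT and 0 and 2 in HMGB2 KD, and was not tested. In the shallower old and young columns RING1 had 565 to 752 estimated counts. In GRCh37 coordinates RING1 spans 33176277 to 33180499 on chromosome 6, plus strand. Of 60 protein-coding genes within 2000 kb of RING1 with at least 100 estimated counts in every old and young column, 27 had 10 counts or fewer in all 4 of these libraries. Elsewhere this held for 266 of 9414 such genes (2.83%). The WT to I79 young ratios of RING1 and BMI1 given further on rest on these low counts.

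**Figure D4:**
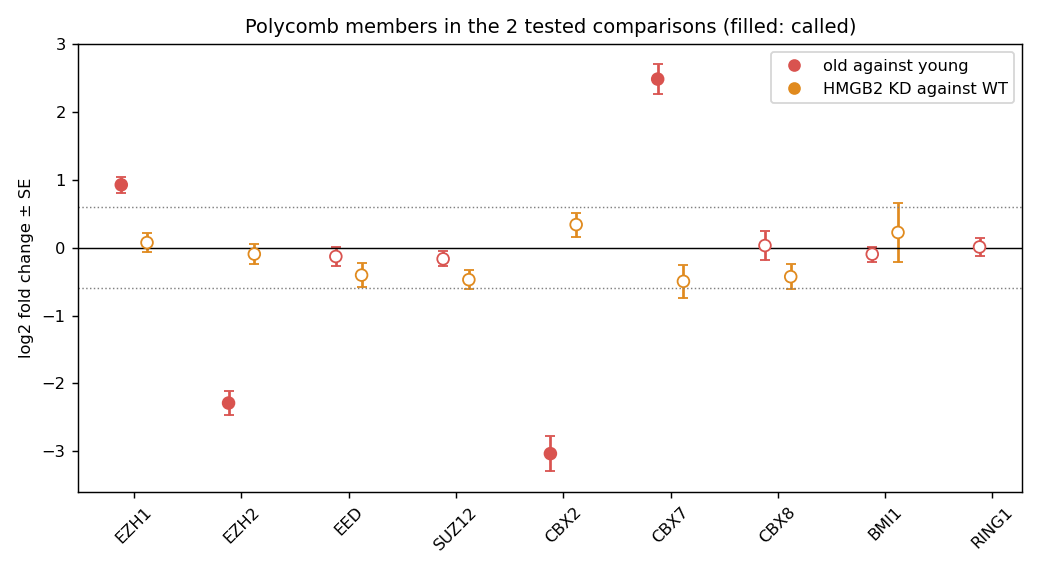
Log2 fold change with its SE of each member in old against young and in HMGB2 KD against WT; filled points were called and dotted lines mark 0.6 in both directions. EZH1, EZH2, CBX2 and CBX7 lie beyond the lines and are filled in old against young, and no point of the knockdown lies beyond them.

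In the wider list of 35 tested Polycomb genes, 2 were called lower after the knockdown and none higher, a share near the 5.2% called among all genes. CBX6 fell from 146 and 157 to 75.3 and 104 CPM (log2 fold change -0.76 ± 0.15 SE, edgeR adjusted p = 0.005844). SCML1, a Polycomb protein of the Scm family, fell from 33.9 and 32.7 to 22.2 and 19.0 CPM (log2 fold change -0.70 ± 0.14 SE, edgeR adjusted p = 0.005296). The median of the list was -0.05. Of the INK4 targets, CDKN2B rose from 19.9 and 18.2 to 42.9 and 45.5 CPM (log2 fold change 1.21 ± 0.14 SE, edgeR adjusted p = 0.0001077), and CDKN2A had a log2 fold change of 0.44 (adjusted p 0.05452). None of the 18 tested HOX genes and none of the 14 proliferation markers was called, and the summed level of the latter was 384 to 391.9 CPM in WT and 374 to 385 in HMGB2 KD.

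ICM cells were set against I79 young, the proliferating cells of the same isolate. The study compared ICM with DMSO-treated cells and gives a dose and a duration for its ICM mRNA data. The sample titles, however, name no DMSO control and repeat neither the dose nor the duration. I79 young is therefore not known to be a matched control. The 2 kinds of table had not been counted alike, so no test was run, and 2 ratios that hold no ICM, WT and I10 young against I79 young, are given beside them. On log2 CPM over 24638 shared genes, 5 of 9 members (EZH2, SUZ12, CBX2, CBX7 and BMI1) lay past 0.6 in ICM, against 58.8% of the 13857 genes with a mean of at least 10 counts. In WT 4 members (EZH2, CBX7, BMI1 and RING1) lay past it, against 43.2% of genes, and in I10 young none did, against 7.57%.

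EZH2 had 38 and 30 reads in the ICM libraries, or 2.95 and 2.82 CPM, against 36.9 CPM in I79 young. The log2 ratio was -3.58 and -3.63 in the 2 libraries. It was -0.89 in WT, -0.01 in I10 young and -2.68 in I79 old on the same scale. CBX2 had 18 and 10 reads, with log2 ratios of -2.86 and -3.35, against -0.41 in WT and -2.95 in I79 old. These 2 genes lay well below both reference ratios, as did the proliferation markers, of which 13 of 14 lay below -0.6 with a median of -3.93 in ICM and -1.64 in WT. The part of those markers in the EZH2 ratio was not tested.

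EZH1 stood at 26.7 and 26.1 CPM in ICM and 25.7 CPM in I79 young, with log2 ratios of 0.06 and 0.02, whereas I79 old lay at 0.77. Reads on EZH2 were 0.11 of those on EZH1 in both ICM libraries, compared with 1.44 in both young columns, 0.13 and 0.18 in the old ones and 0.80 and 0.85 in WT. On coding reads per kilobase of the longest coding sequence, the ratio of EZH2 to EZH1 within the ICM libraries was 0.22 and 0.22. The ratio of EZH2 to EZH1 reads was thus low in old and in ICM cells alike, while the EZH1 level was near that of I79 young in ICM and above it in I79 old.

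SUZ12 had log2 ratios of -1.24 and -1.42 in ICM, against -0.25 in WT and -0.23 in I79 old. EED had ratios of -0.10 and -0.21, against -0.28 in WT. BMI1 had ratios of -1.46 and -1.54, but its reads were divided with COMMD3-BMI1 in these tables, and with both joined the ratio was -0.57. RING1 had ratios of -0.05 and 0.02. CBX8 had ratios of 0.40 and 0.51, close to the 0.54 of WT.

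CBX7 lay at 15.3 and 15.1 CPM in ICM, 4.96 CPM in I79 young and 10.01 and 8.88 CPM in WT. Its log2 ratio was 1.58 in ICM, 0.92 in WT and 2.61 in I79 old. Only 25 of 196 and 24 of 160 CBX7 reads of the ICM libraries fell in the coding region, and with ICM coding reads alone, set against all I79 young reads, the ratio was -0.53. That ratio is lowered by its construction, because most CBX7 reads lie outside the coding region and those were dropped from ICM alone, so it says nothing about the direction. The INK4 targets lay higher in ICM, by 1.98 for CDKN2A and 2.07 for CDKN2B, and also in WT, by 1.21 for both. Of 17 HOX genes compared, 12 lay below -0.6 and 1 above 0.6 in ICM, with a median of -1.32, and in WT 10 lay below and 1 above, with a median of -0.76. Of the 8 fibroblast markers, 6 lay below -0.6 in ICM and 5 in WT.

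**Figure D5:**
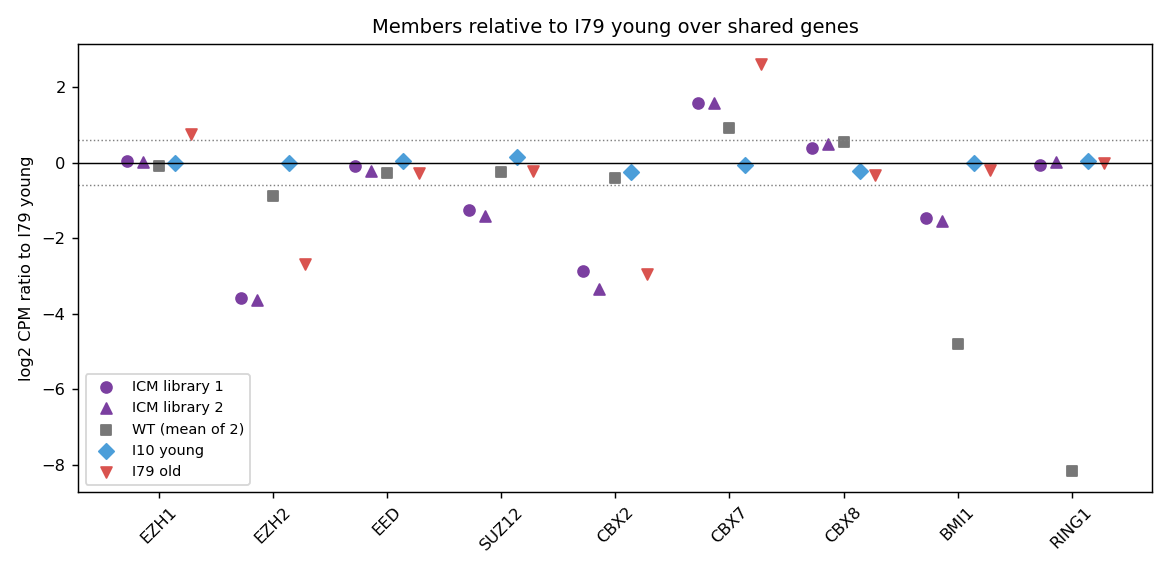
Log2 CPM ratio of each member to I79 young over shared genes, for the 2 ICM libraries, the mean of the WT libraries, I10 young and I79 old; dotted lines mark 0.6 in both directions. ICM lies near I79 old for CBX2, below it for EZH2 and SUZ12, and near 0 for EZH1, while the WT points of BMI1 and RING1 lie far below 0.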

How the data were processed

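Groups were taken from the sample titles. The deposited WT and HMGB2 KD tables hold raw counts per gene. The deposited old and young tables hold estimated counts and TPM per transcript, 1 column per group, treated as a pooled value. The deposited ICM tables hold estimated (fractional) counts per gene and transcript region. The submitters' notes name STAR 2.6.0c, featureCounts and DESeq2 on GRCh37, and the counter's use of strand is not given in the sources used here. They name no program for the estimates per transcript, and WT and HMGB2 KD carry summary rows of the htseq-count kind. Which program made each set of counts is therefore uncertain. Estimated counts were summed per gene through GENCODE 44 on GRCh37 (97.7% of transcript IDs matched) and rounded. Rows of the WT and HMGB2 KD tables that name no gene held 16.9% to 18.0% of their totals and were left out.

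Tests used edgeR 4.0.16 (R 4.3.3): quasi-likelihood, TMM, filterByExpr and Benjamini-Hochberg adjustment. Old against young left 1 residual degree of freedom, HMGB2 KD against WT 2. The SE is the log2 fold change over the square root of F. Nothing states that replicates came from separate cultures, so p-values do not reach beyond these samples. The edgeR fit also draws each gene's dispersion towards that of other genes. With so few residual degrees of freedom, p-values and SEs therefore rest in part on other genes, not only on the gene's own spread. Ratios without a test used log2 CPM with a prior count of 2, and intervals are exact Clopper-Pearson (95%), covering counting error only. On simulated data with 200 genes changed by 1.5, 76.5% were recovered in each design with trended dispersions, with 1 (of 15338 genes, knockdown) and 3 (of 15115, old against young) false calls. With gene-wise dispersions 78% and 79% were recovered, with 6 and 32 false calls. The simulation held no isolate effect and took its dispersions from the same fits. Its change of 1.5 was larger than that of EZH1 in old cells (0.93) or of any member in the knockdown (at most 0.50 in size). The rates therefore do not carry over to those members. DESeq2 1.42.0, other scalings, filters and thresholds, 1 RUVs factor, the replicate block and leaving out libraries were alternatives. The RUVs factor was computed in the manner of RUVs, from deviations of log2 CPM within groups, without the published package. Named were the 9 members, genes called from fixed Polycomb, target and marker lists, and the 5 genes nearest to EZH2. Members and lists were chosen with earlier results of these data known. 1 further Polycomb gene is not reported here.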

Additional observations from a re-analysis of the deposited data

Results flagged for a closer look

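Old against young, CBX8 and RING1 had opposite directions in the 2 isolates. CBX8 had a log2 ratio of -0.15 in I79 (95% counting interval -0.53 to 0.22) and 0.21 in I10 (-0.14 to 0.58), a difference of -0.37 (I79 minus I10). RING1 had a log2 ratio of 0.17 in I79 (0.01 to 0.33) and -0.15 in I10 (-0.31 to 0.01), a difference of 0.33. Each isolate had 1 column per age, and the difference was not tested.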

How the results depend on the processing

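In old against young, the same 4 members (EZH1, EZH2, CBX2 and CBX7) were called under the 8 alternatives with a test, with adjusted p at or below 0.008825. Among these alternatives, the looser threshold of 0.05 could not lose a call, and joining COMMD3-BMI1 to BMI1 left the counts of these members as they were. Each of the 4 kept its direction and stayed past 0.6 without isolate I79 and without isolate I10. The number of genes called was 1446 (869 higher, 577 lower), 3132 with plain library totals (1020 higher, 2112 lower, with the median of all genes moving from -0.01 to -0.22), 4265 with no filter on low counts and 3860 at an adjusted p under 0.05. By DESeq2 it was 2144, and 1447 with COMMD3-BMI1 joined to BMI1, a choice made after seeing the data. CBX8 turned to -0.18 with plain totals, and RING1 to -0.20 with plain totals and -0.0081 with no filter.

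After HMGB2 knockdown, 797 genes were called (438 higher, 359 lower). With plain totals 385 were higher and 484 lower, and 1175 were called without the filter, 1187 at an adjusted p under 0.05, 944 by DESeq2 and 1243 with the replicate block. The replicate numbers give only 2 pairs, whose deviations correlated at 0.12, so they were not taken as pairing, and the block called 0 members. Leaving out 1 library gave 312 (without HMGB2 KD replicate 2) to 999 genes and 0 members. With 1 RUVs factor 1 member was called, CBX7 (log2 fold change -0.68, adjusted p 0.005088, the range over its alternatives being 0.005088 to 0.6857). Leaving out 1 library gave -0.0048 to 0.14 for EZH1, -0.27 to 0.062 for EZH2 and -0.53 to 0.70 for BMI1, with the sign turned without HMGB2 KD replicate 2, and -0.97 to -0.15 for CBX7, and BMI1 turned to -0.12 with 1 RUVs factor. None of these was called, and the cause was not tested.

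In ICM, 5 members lay past 0.6, and the number lay between 4 and 6 under the alternatives, with 4 when COMMD3-BMI1 was joined to BMI1 (-0.57), a choice made after seeing the data. With I10 young in place of I79 young, CBX8 also lay past 0.6, at 0.66. With ICM coding reads set against all reads of I79 young the number was also 5, with CBX8 (0.76) in place of CBX7 (-0.53). Dropping reads from ICM alone shifts every gene by its own coding share. That share was 74.3% and 80.3% for CBX8, against 61.1% and 61.9% of all reads in the 2 ICM libraries. Neither the CBX7 nor the CBX8 value therefore bears on direction. Within the isolates, 4 members passed in both under all settings tried. With 24 and 16 reads of CBX2 in old columns and 38 and 30 of EZH2 in ICM, depth limits these levels.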
